A study of Homo sapiens with 6 samples.

Results

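The accessible regions around 10 genes of the NF-κB pathway were examined in GM12878: the 5 subunit genes NFKB1, NFKB2, REL, RELA and RELB, the inhibitor genes NFKBIA, NFKBIE and TNFAIP3, and the target genes TRAF1 and BIRC3. A peak was taken as belonging to a gene when it overlapped the gene body, or the 10 kb on either side of it, in the GENCODE annotation of hg19. Merging the peaks of the 6 libraries gave 56447 consensus regions, and 40 of them lay in the windows of these 10 genes, out of 20136 protein-coding genes. No region lay in the windows of more than 1 of the 10 genes.

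ATAC-seq, in which the Tn5 transposase inserts adapters into open chromatin, had been run on bulk GM12878 cells, an established human lymphoblastoid line, after fixation with 1% PFA and without antibody. The 3 protocols, with 2 replicate libraries each, differed in how crosslinks were reversed at 65 °C: with the SDS-containing old buffer followed by DNA purification, with the SDS-free new buffer followed by purification, and with the SDS-free buffer directly before the PCR, which is the bulk form of Pi-ATAC. All libraries came from 1 cell line, and the labels do not say whether replicates were separate cultures, so the spread between them may be technical. There were 37654 and 34826 peaks in the old buffer lists, 38023 and 30136 in those of the purified new buffer, and 36252 and 34438 in the unpurified ones. Read totals are not in the lists, but the lowest local background of a peak, which follows depth, was 1.74 and 1.52 reads, 1.58 and 1.51 reads, and 1.76 and 1.86 reads in the same order, a span of 1.24 times, with replicate 2 of the purified new buffer at the low end.

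NF-κB is a family of dimers built from p50 (from NFKB1), p52 (from NFKB2), REL, RELA and RELB, which are held in the cytoplasm by IκB proteins until a signal leads to their degradation or processing. IκBα (NFKBIA), IκBε (NFKBIE) and A20 (TNFAIP3) are known to be induced by NF-κB and to limit its activity, and TRAF1, an adaptor, and cIAP2 (BIRC3), a ubiquitin ligase, are induced components of survival signalling. In lymphoblastoid lines the LMP1 protein of Epstein-Barr virus signals like a constantly active CD40 receptor through both the canonical and the non-canonical branch of this pathway.

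The sequences that follow show the best-known feature of these promoters, the κB element bound by NF-κB dimers. Capitals mark matches to the 10-base κB consensus on either strand, each sequence reads 5′ to 3′ on the strand of its gene, and all positions are on hg19. They are the strongest regions whose 300 bp around the summit held a match, with untranslated sequence limited to 30 bases around a match. The BIRC3 promoter stretch is chr11:102187966-102188139 (plus strand), that of REL is chr2:61108652-61108681 (plus strand), and the first of NFKBIA is chr14:35873159-35873188 (minus strand). This NFKBIA stretch lies 767 to 796 bases after the gene start, in sequence annotated as untranslated. In its name 5′ stands only for the region at the gene's 5′ end, since the transcript that holds it was not looked up. The stretches of TNFAIP3 and NFKB2 are chr6:138188279-138188350 and chr10:104154218-104154247, both on the plus strand. The stretch of the NFKB1 promoter is chr4:103422417-103422486, and those of its introns are chr4:103485566-103485675 and chr4:103474151-103474260, all on the plus strand. The 140 bases before the start of NFKBIA (chr14:35873956-35874095, minus strand) were added after the match in them was seen.
BIRC3 promoter: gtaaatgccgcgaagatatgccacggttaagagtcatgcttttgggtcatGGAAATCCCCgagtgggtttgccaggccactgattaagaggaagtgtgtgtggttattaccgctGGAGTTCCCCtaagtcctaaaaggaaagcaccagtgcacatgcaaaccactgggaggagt
REL 5′ end: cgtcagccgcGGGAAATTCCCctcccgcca
NFKBIA 5′ untranslated sequence: ggaggggggcGGAAAGTCCCtgggcgcctg
NFKBIA before the start: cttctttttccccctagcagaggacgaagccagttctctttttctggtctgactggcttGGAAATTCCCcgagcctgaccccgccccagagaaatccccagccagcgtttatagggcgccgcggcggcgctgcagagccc
TNFAIP3 promoter: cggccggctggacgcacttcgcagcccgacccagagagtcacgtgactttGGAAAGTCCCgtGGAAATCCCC
NFKB2 5′ end: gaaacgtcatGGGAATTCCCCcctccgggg
NFKB1 promoter: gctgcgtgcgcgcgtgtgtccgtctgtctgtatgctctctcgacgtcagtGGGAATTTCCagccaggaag
NFKB1 intron, 63.2 kb from the start: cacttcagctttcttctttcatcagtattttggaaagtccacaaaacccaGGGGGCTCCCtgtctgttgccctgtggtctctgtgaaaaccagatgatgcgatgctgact
NFKB1 intron, 51.7 kb from the start: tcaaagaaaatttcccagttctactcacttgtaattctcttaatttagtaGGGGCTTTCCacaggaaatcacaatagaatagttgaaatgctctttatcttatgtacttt

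Every one of the 10 genes had an accessible promoter in all 6 libraries, and 16 of the 22 distal regions in their windows belonged to NFKB1 (12) and TRAF1 (4). A promoter region was one that reached within 1 kb of the start of a protein-coding transcript, and every other region was called distal. When peaks with a −log10 q under 5 were left out, NFKBIE no longer did (9 of 10 genes). Among all protein-coding genes, 44.8% had a promoter region called in all 6 libraries. Of the 40 regions, 13 were promoters of the 10 genes themselves, 5 were promoters of neighbouring genes and 22 were distal. In all 6 libraries 22 of the 40 regions were called (55%), against 35.5% of all consensus regions. Among promoter regions this was 13 of 18 (72.2%), against 64.2% of all promoter regions, and among distal regions 9 of 22 (40.9%), against 27% of all distal regions. Regions called in a single library numbered 5 of 40 (12.5%), all of them distal, against 27.4% of all regions.

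The libraries found similar numbers of peaks around these genes. The old buffer gave 33 and 33 peaks in the windows (33.0 ± 0, SD, n = 2), the purified new buffer 30 and 27 (28.5 ± 2.12) and the unpurified new buffer 33 and 31 (32.0 ± 1.41). The lowest number belonged to the library with the fewest peaks overall. As a share of each library's own list these peaks made up 0.0876% and 0.0948%, 0.0789% and 0.0896%, and 0.0910% and 0.0900%. Both unpurified shares were above both of the purified new buffer, and the old buffer shares overlapped with those of each new buffer protocol.

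**Figure D1:**
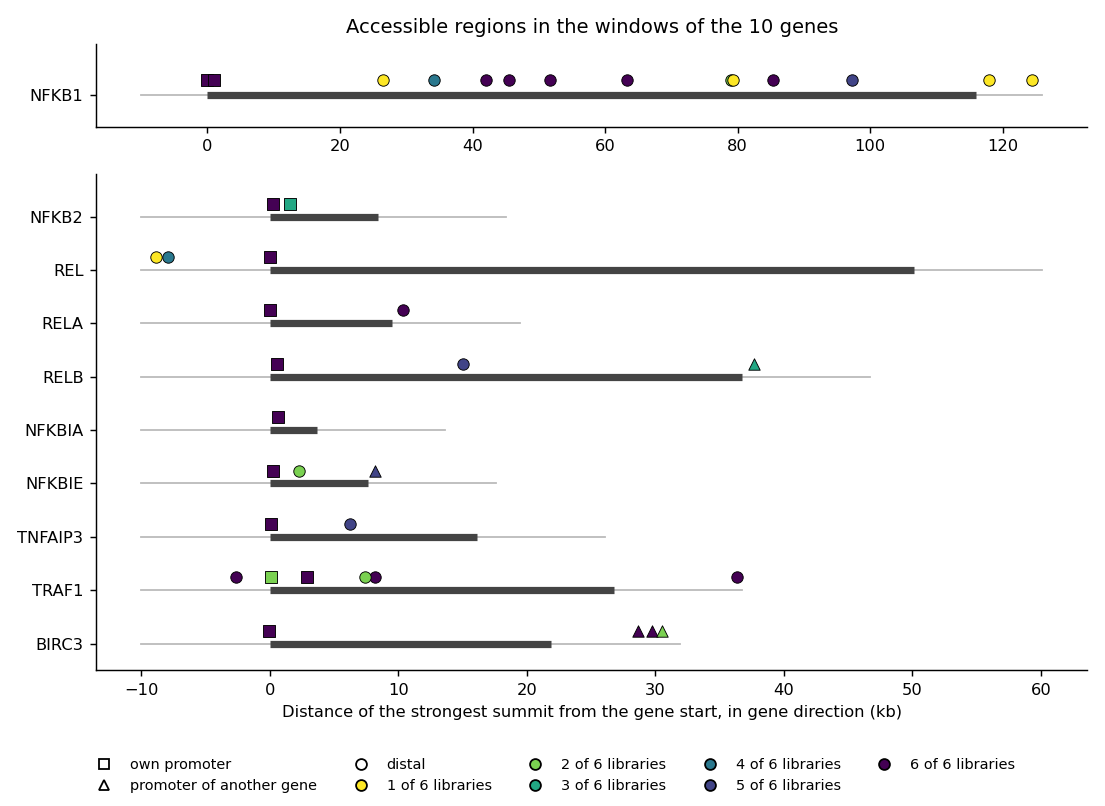
Position of the 40 accessible regions in the windows of the 10 genes. The x axis gives the distance of the strongest summit from the gene start in kb, thick lines are gene bodies, thin lines the 10 kb on either side, symbols the kind of region and colours the number of libraries that called it; NFKB1 holds 14 of the 40 regions, and every gene has a promoter symbol in the colour for 6 of 6 libraries.

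The strength of a promoter was read in 2 ways, by its position in the library's peak list ordered by −log10 q (the strongest peaks are at the top) and by the number of reads at its summit, recovered as whole numbers from the deposited fold enrichment and −log10 p. In bulk cells, a site open in fewer cells and a site less open in each cell cannot be told apart. The median position of the strongest promoter over the 6 libraries ranged from the top 1.55% for BIRC3 to the top 49.6% for NFKBIE. Between them came REL at 12.0%, TNFAIP3 at 14.1%, NFKBIA at 15.0%, NFKB2 at 17.4%, RELB at 27.6%, NFKB1 at 29.7%, RELA at 36.9% and TRAF1 at 39.6%. By −log10 q the median of the 10 was the top 22.5%, against 20.2% for the 9020 protein-coding genes with a promoter region called in all 6 libraries. Ranked by reads the order changed, with NFKBIA at the top 5.17%, TRAF1 at 13.9%, NFKB1 at 14.8% and RELA, which moved down, at 44.7%. A value by reads over all genes is not given here. BIRC3 stood apart from the other 9 genes in every library by −log10 q and by reads. Among the other 9 genes, the ranges over libraries of neighbours in the order by −log10 q overlapped. By fold enrichment the BIRC3 promoter was the highest of the 10 in both old buffer libraries and in replicate 2 of the unpurified protocol. In the purified new buffer libraries it was at 7.72 and 6.98, below RELB at 8.60 and 8.96. It was also below NFKB2 at 8.06 in replicate 1, and below RELA at 7.55, TNFAIP3 at 7.20 and REL at 7.03 in replicate 2. In replicate 1 of the unpurified protocol it was at 7.15, below NFKB2 at 8.65, REL at 8.47, RELA at 8.10 and TNFAIP3 at 7.59.

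**Figure D2:**
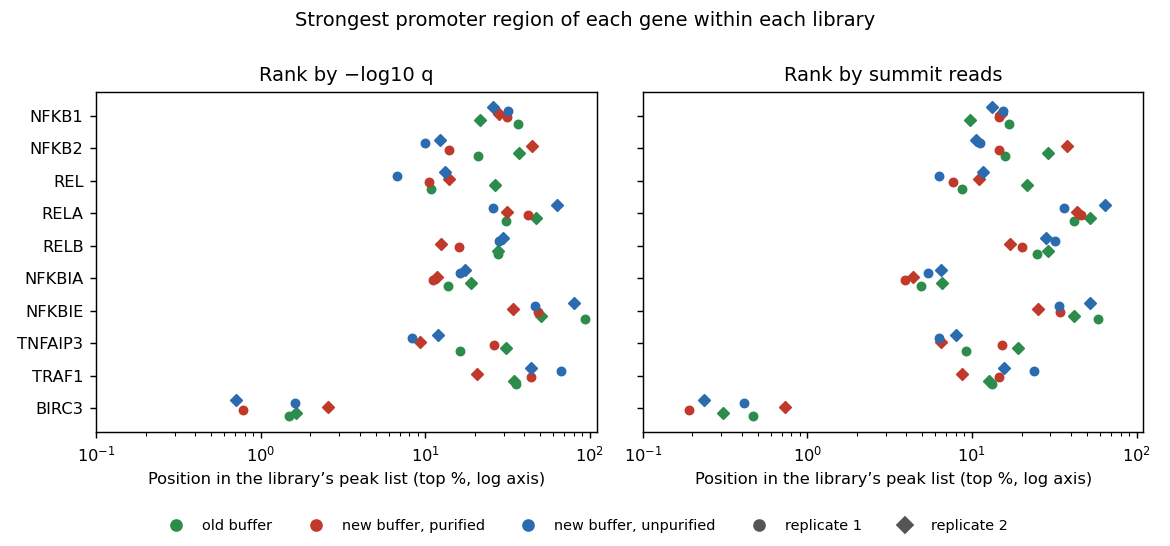
Position of the strongest promoter region of each gene in the peak list of each library, as the top percent on a log axis, ranked by −log10 q on the left and by reads at the summit on the right. Each point is 1 library, colours are the protocols and symbols the replicates; BIRC3 lies within the top 2.57% in every library on both scales, and NFKB1, NFKBIA and TRAF1 rank higher by reads than by −log10 q.

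Among the subunit genes, REL, which encodes c-Rel, a subunit prominent in B cells, had the highest ranked promoter by the median over libraries. Its region (chr2:61107966-61109102) spans the gene start, with the summit in the 5′ untranslated sequence. It held 50 and 32 reads at the summit with the old buffer, 55 and 44 with the purified new buffer, and 60 and 47 without purification. Its position was the top 10.9% and 26.4%, 10.5% and 14.0%, and 6.70% and 13.2%. The lowest value was that of replicate 2 of the old buffer, and the ranges of the 3 protocols overlapped. By −log10 q NFKB1 ranked above REL in replicate 2 of the old buffer. RELB did so in replicate 2 of the purified new buffer, and NFKB2 in replicate 2 of the unpurified protocol. The 2 distal regions of the REL window lay upstream and overlapped the lncRNA gene REL-DT. The stronger, 7943 bases before the REL start, was called with 18 reads in replicate 2 of the old buffer, 15 in replicate 2 of the purified new buffer, and 18 and 20 without purification.

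NFKB2, which encodes the p100 precursor of p52 and is the hallmark of the non-canonical branch, had 2 promoter regions and no distal region. The region at the gene start (chr10:104153713-104154536) held 40 and 28, 43 and 25, and 49 and 49 reads. In each of the purified protocols replicate 2 was the lower, and both unpurified libraries were above the other 4. The other promoter region (chr10:104155257-104155581), 1564 bases into the gene, held 28 and 23 reads with the old buffer and 21 in replicate 1 of the purified new buffer, and was not called in the other 3 libraries.

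RELA, the main transactivating subunit of the canonical branch, had fewer reads at its promoter than REL and NFKB2 in every library. Its region (chr11:65430171-65431089), which overlaps the lncRNA gene RELA-DT, held 25 and 20, 23 and 23, and 28 and 19 reads. The region past its 3′ end (chr11:65419879-65420837) was about as strong as the promoter, with 25 and 28, 20 and 33, and 23 and 31 reads. The values of the 3 protocols overlapped at both regions.

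RELB, the partner of p52 in the non-canonical branch, held 33 and 28, 37 and 37, and 30 and 32 reads at its promoter (chr19:45504475-45505619). Both purified new buffer libraries were above the other 4. Its intronic region 15.1 kb from the start was called in 5 libraries, all but replicate 2 of the unpurified protocol, with 12 to 19 reads. The last region of the window was the promoter of the neighbouring gene CLASRP, called in 3 libraries.

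NFKB1, which encodes the p105 precursor of p50, carried 14 of the 40 regions in a window of 136.0 kb. Its main promoter region (chr4:103421603-103422802) was even over libraries, with 39 and 44, 43 and 39, and 43 and 45 reads. A further promoter region 945 bases into the gene (chr4:103422849-103423615) held 38 and 30, 39 and 25, and 41 and 32 reads, lower in replicate 2 of every protocol. Of its 12 distal regions 10 lay in the gene body and 2 past its end. In all 6 libraries 5 distal regions were called, all intronic, more than in 98.7% of protein-coding genes. Only 20.0% of protein-coding genes had any distal region called in all 6 libraries. Per 100 kb of window the 5 of NFKB1 came to 3.68 regions, more than in 97.8% of genes. Of the other distal regions, 4 were called in a single library.

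The strongest distal region of NFKB1 was intronic, 63.2 kb from the start (chr4:103485398-103486159). It held 38 and 27 reads with the old buffer, 53 and 30 with the purified new buffer, and 47 and 49 without purification. Its position was the top 21.8% and 40.9%, 9.15% and 26.3%, and 13.8% and 11.7%, so in 5 of 6 libraries it ranked above the NFKB1 promoter, the exception being replicate 2 of the old buffer. By reads it was above the promoter in 3 of 6 libraries. The intronic region at 45.5 kb held 27 to 35 reads, and those at 42.0 kb, 51.7 kb and 85.4 kb held 20 to 32, 17 to 26 and 12 to 22 reads.

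Among the inhibitors, NFKBIA, the gene of the fast feedback inhibitor IκBα, had a single region in its window, a wide promoter of 1505 bp (chr14:35872841-35874345). It held 60 and 50, 68 and 60, and 63 and 58 reads at the summit, more than at any other promoter of the 10 genes except that of BIRC3 in every library. Its local background was also high, at 8.98 to 11.6 reads, and its position was the top 15.0% by −log10 q and the top 5.17% by reads (medians of 6 libraries). TNFAIP3, the gene of the ubiquitin-editing enzyme A20, had its promoter (chr6:138187884-138188738) at 49 and 34, 42 and 53, and 60 and 54 reads, with both unpurified libraries above the other 4. Its only distal region was intronic, 6235 bases from the start (chr6:138194358-138194773). That region held 26 and 35 reads with the old buffer, 27 in replicate 1 of the purified new buffer, and 31 and 30 without purification, and was not called in replicate 2 of the purified new buffer.

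NFKBIE, the gene of IκBε, had the weakest promoter of the 10 genes by −log10 q (chr6:44233090-44233612), with 20 and 23, 28 and 31, and 29 and 22 reads. Its position by −log10 q ran from the top 34.3% to the top 93.0%, and ranked by reads its median was the top 37.8%, above that of RELA at 44.7%. The intronic region 2272 bases into the gene was called in 1 library of the old buffer with 24 reads and in 1 unpurified library with 20. The remaining region of this window was the promoter of SLC35B2, called in 5 libraries.

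Of the 2 survival genes, BIRC3 had by far the strongest promoter by −log10 q and by reads (chr11:102187755-102188632). It held 99 and 94 reads at the summit with the old buffer, 120 and 89 with the purified new buffer, and 110 and 115 without purification. Every library placed it in the top 1000 of its list, at ranks 557 and 571, 296 and 775, and 588 and 245. No other region of the 10 windows reached rank 1000 in any library. The fold enrichment was 6.93 to 7.86 over a local background of 11.9 to 14.7 reads, where the median background of all peaks was 2.50 to 3.06 reads. In some libraries other promoters of the 10 genes had a higher fold enrichment, such as RELB at 8.60 and 8.96 with the purified new buffer. Ranked by reads the BIRC3 promoter was at the top 0.359% (median of 6 libraries). No distal region was called in the BIRC3 window, whose other 3 regions were at the promoter of the adjacent paralogue BIRC2, which encodes cIAP1. The strongest BIRC2 region (chr11:102217383-102218556) held 69 and 63, 74 and 74, and 74 and 88 reads, all below the BIRC3 promoter of the same library.

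TRAF1, an adaptor that binds TRAF2 and the cIAPs, had 4 distal regions among the 6 of its window. At the annotated 5′ end of the gene a region (chr9:123691210-123691491) was called in the 2 unpurified libraries alone, with 34 and 31 reads. In all 6 libraries the promoter region was at a further transcript start 2874 bases into the gene (chr9:123688050-123688938), with 43 and 40, 43 and 48, and 35 and 42 reads. The strongest distal region lay 2602 bases before the gene start (chr9:123693652-123694526) and held 42 and 41, 60 and 45, and 47 and 37 reads, so it exceeded the promoter in 3 of 6 libraries. With an intronic region at 8221 bases and one 36.4 kb from the start, inside the neighbouring gene PHF19, TRAF1 had 3 distal regions called in all 6 libraries. This was 6.41 per 100 kb of window, more than in 99.8% of protein-coding genes. Most genes had no such region, and RELA with 1 was already above 97.2% of genes per 100 kb. Of the 10 genes 3 (30%) had a distal region called in all 6 libraries, against 20.0% of all protein-coding genes.

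**Figure D3:**
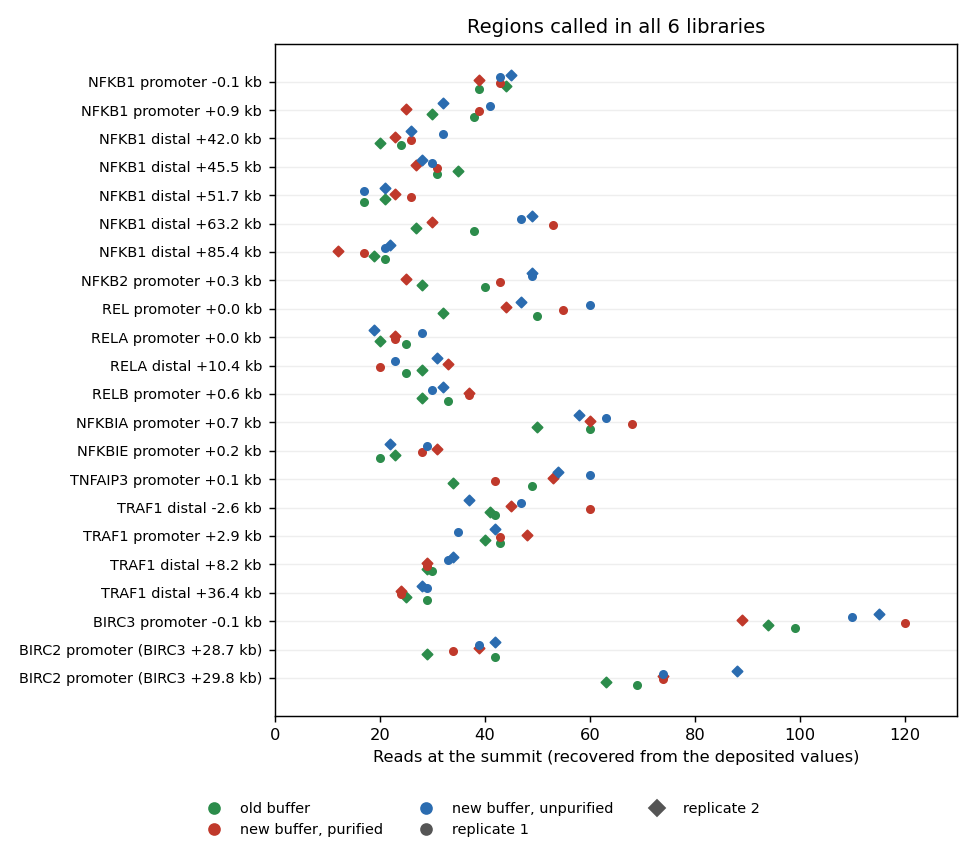
Reads at the summit of the 22 regions called in all 6 libraries, on a linear axis, with each region named by its gene, kind and distance from the gene start. Each point is 1 library, colours are the protocols and symbols the replicates; the BIRC3 promoter lies at 89 to 120 reads and the strongest BIRC2 region at 63 to 88, while all others lie at or below 68.

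The κB element was frequent in these regions. In the 300 bp around the summit 16 of the 40 regions held a match (40%), against 13.9% of all regions. Among promoter regions these were 9 of 18 (50%) against 15.4%, and among distal regions 7 of 22 (31.8%) against 13.5%. Of the distal regions called in all 6 libraries 2 of 9 held a match (22.2% against 16.8%), and 1 of 9 in the 200 bp around the summit (11.1% against 13.2%). The median GC content of these windows was 71.0% at the promoters and 43.2% at the distal regions, against 67.0% and 43.7% over all regions. In the 200 bp around the summit 11 regions held a match (27.5% against 10.5%), and over the whole region 21 did (52.5% against 20.0%). The matches numbered 2.20 per kb of promoter region, against 0.650 over all promoter regions, and 0.799 per kb of distal region, against 0.494.

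Counted over all promoter regions of a gene, every one of the 10 genes had at least 1 match, as did 40.6% of the 9020 genes with a promoter called in all 6 libraries. At least 3 matches were found in 5 of the 10 genes, against 5.50% of the 9020. The promoter regions of the 10 genes were longer, with a median of 1141 bp in all per gene against 943 bp. Among the 2579 genes whose promoter regions were at least that long, 53.9% held a match and 10.8% held at least 3. NFKB2 had the most matches with 8, followed by REL and NFKBIA with 4 each, NFKB1 and TNFAIP3 with 3, RELB and BIRC3 with 2, and RELA, NFKBIE and TRAF1 with 1. Overlapping matches were counted separately, as in the REL and NFKB2 sequences, where 11 bases hold 2.

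From 250 bases before to 50 after the annotated gene start, 6 of the 10 genes held a match, against 11.9% of all protein-coding genes. Those of RELB are not placed here, and those of the other 5 genes began 199 and 135 bases before the start in BIRC3, 229, 22 and 10 bases before it in TNFAIP3, 81 bases before it in NFKBIA, 20 bases before it in NFKB1, and 36 and 37 bases after it in REL. NFKB2, RELA, NFKBIE and TRAF1 held none in this window. The same 10 bases recurred at different genes. GGGACTTTCC occurred near the summits of NFKBIA, TNFAIP3 and the inner promoter region of NFKB2, GGGGATTTCC at the BIRC3 and TNFAIP3 promoters and the NFKBIE intron, and GGGAATTTCC at the NFKB1 and REL promoters and a TRAF1 intron. In the printed sequences these read as the reverse complement where the match is on the opposite strand of the gene. The 26 matches near summits comprised 15 distinct 10-base strings.

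**Figure D4:**
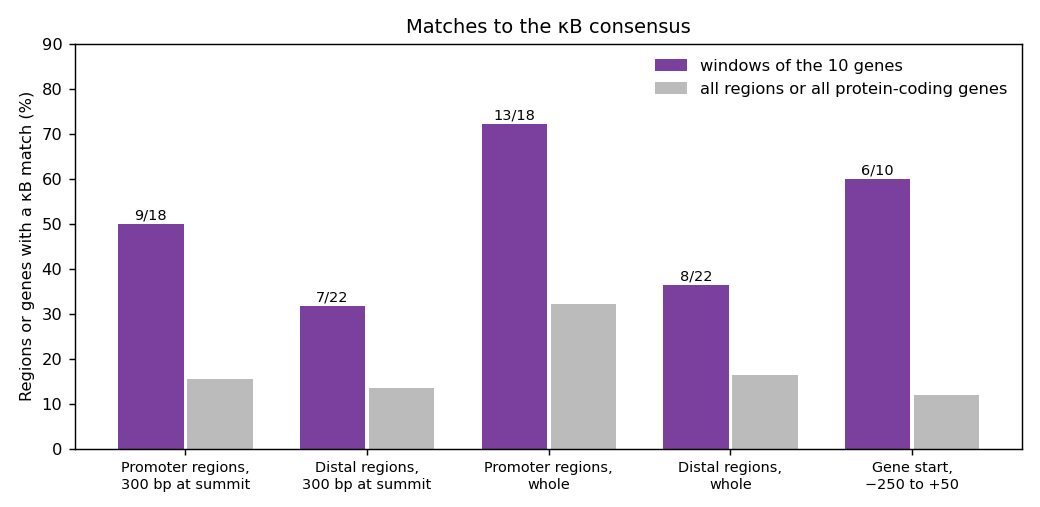
Share of regions or genes with a match to the κB consensus, in percent, in the windows of the 10 genes and over all regions or protein-coding genes. Numbers above the bars give the count in the windows of the 10 genes; the share there is higher in each of the 5 classes.

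Motifs of 3 other factors of B cells were searched in the same 300 bp on both strands, with no overlap of their matches with a κB match. AP-1 (TGANTCA) was found in 8 of 40 regions (20%) against 18.5%, with 2 of these also holding a κB match, and the composite ETS-IRF element (GGAA, 2 free bases, GAAA) in 4 (10%) against 5.43%. EBF1 (TCCC, 2 free bases, GGGA) was found in none, against 1.21% of all regions. The AP-1 matches included the TRAF1 promoter and its upstream region, the RELB promoter with 2 matches, and the NFKB1 intron at 63.2 kb, whose AP-1 match (TGAGTCA) lay 12 bases before the summit. A match describes the sequence only, and binding was not measured.

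The question of the bulk experiment was whether the change of buffer and the missing purification alter the accessible sites. At these 10 genes few regions were called in both libraries of 1 protocol and neither library of another. Of 38 regions that the old or the purified new buffer called, 2 were called in both old buffer libraries and in neither purified new buffer library, against 3.2% of all regions, and 0 the other way, against 1.83%. They were the NFKB1 intronic region at 34.2 kb and the weakest of the 3 BIRC2 promoter regions. Comparing unpurified with old buffer libraries, 1 of 37 regions was called in both unpurified libraries alone, against 2.4%, and 2 in both old buffer libraries alone, against 2.82%. The former was the region at the TRAF1 5′ end, and the latter were the inner NFKB2 promoter region and the same BIRC2 region. Between the new buffer protocols, 3 of 38 regions were called in both unpurified libraries alone, against 2.7%, and 0 in both purified libraries alone, against 1.76%. These were the NFKB1 region at 34.2 kb, the CLASRP promoter and the TRAF1 5′ end.

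These regions were at the top 42.0% or lower by −log10 q where they were called, and some held more reads than the median peak. The NFKB1 region at 34.2 kb (chr4:103456446-103456893) held 17 and 17 reads with the old buffer and 21 and 24 without purification, and the CLASRP promoter (chr19:45542165-45542706) 18 in replicate 1 of the old buffer and 19 and 17 without purification. The weakest BIRC2 promoter region (chr11:102218682-102219054) held 31 and 27 reads with the old buffer. Its position was the top 87.7% and 85.5% by −log10 q and the top 28.0% and 31.0% by reads. The TRAF1 5′ end was at the top 80.2% and 90.1% by −log10 q and the top 25.4% and 29.8% by reads. The inner NFKB2 region, with 28 and 23 reads in the old buffer libraries, was at the top 59.2% and 65.6% by −log10 q and the top 34.0% and 41.4% by reads.

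Summit enrichment was compared over the 20064 regions called in all 6 libraries with limma on log2 fold enrichment, centred on each library's median, with Benjamini-Hochberg adjustment over all of them. Of the 22 regions of the 10 genes, 0 passed an adjusted p of 0.05 in any of the 3 comparisons, and at an unadjusted p under 0.05 there was 1 in each. Over all regions limma called 1 lower (0.00498%) and 0 higher (0%) with the purified new buffer against the old, 1 lower (0.00498%) and 0 higher (0%) with the unpurified new buffer against the old, and 0 either way (0%) between the new buffer protocols. The unadjusted p was under 0.05 for 6.85%, 6.54% and 4.89% of all regions. The median difference of the 22 regions was 0.08, 0.03 and -0.0019 on the log2 scale, with 16, 13 and 10 regions higher and 6, 9 and 12 lower. These medians changed sign with the libraries used, ranging from -0.08 to 0.22, from -0.03 to 0.04 and from -0.12 to 0.04 when 1 library was left out, and the lowest of the first was without replicate 2 of the purified new buffer.

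The regions with an unadjusted p under 0.05 were picked out after their values were seen. At the RELB promoter the fold enrichment was 6.44 and 6.87 with the old buffer, 8.60 and 8.96 with the purified new buffer, and 7.11 and 6.25 without purification. The purified new buffer was higher than the old by 0.41 on the log2 scale (SE 0.19, limma adjusted p = 0.684). At the NFKB2 promoter the fold enrichment was 6.47 and 5.60, 8.06 and 5.46, and 8.65 and 7.27, and the unpurified new buffer was higher than the old by 0.42 (SE 0.20, limma adjusted p = 0.753). At the NFKB1 intronic region at 85.4 kb the fold enrichment was 4.80 and 4.93, 4.33 and 3.99, and 5.02 and 6.15, and the unpurified was higher than the purified new buffer by 0.44 (SE 0.20, limma adjusted p = 1.00). At the BIRC3 promoter the purified new buffer differed from the old by 0.02 (95% interval -0.36 to 0.40) and the unpurified by 0.07 (-0.31 to 0.45). The 95% intervals of the 22 regions reached 0.33 to 0.45 to either side, without adjustment over the regions tested.

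**Figure D5:**
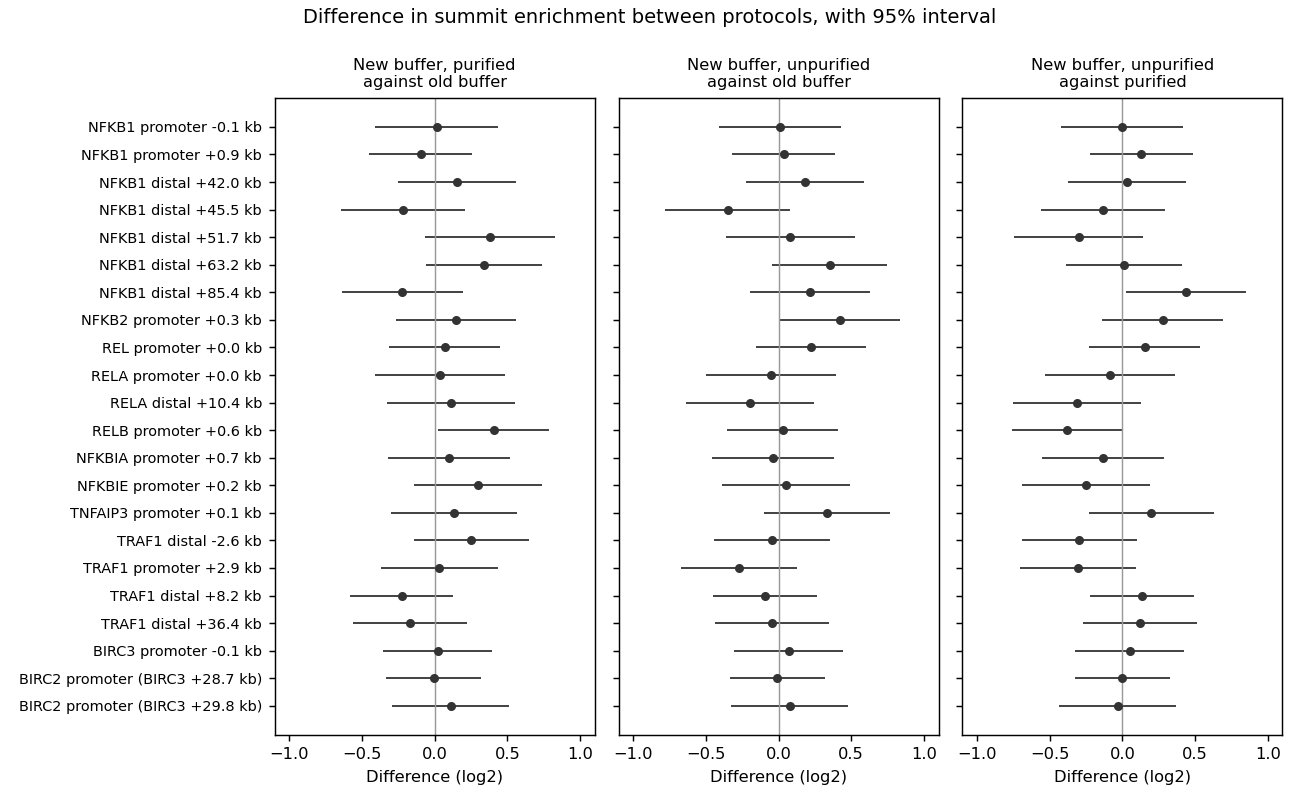
Difference in log2 summit enrichment between protocols for the 22 regions called in all 6 libraries, in 3 panels, one per comparison. Points are the limma estimates and bars their 95% intervals without adjustment; differences lie between -0.38 and 0.44, and intervals cross 0 except for 1 region in each panel.

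Of 48 other genes of the pathway, in 5 lists, 31 (64.6%) had a promoter region called in all 6 libraries, against 44.8% of all protein-coding genes. All 10 genes of the list of further inhibitors and regulators did, which also holds RNF31, the catalytic subunit of an activating ubiquitin ligase, and BCL3, a nuclear IκB protein that can co-activate. Among them were CYLD, a deubiquitinase that opposes NF-κB signalling, at the top 0.520%, and NFKBIZ, an inducible nuclear IκB protein, at the top 4.84% (medians of 6 libraries). Of 10 genes of kinases and their partner proteins 7 did, whereas IKBKE and TAB1 were called in at most 5 libraries and CHUK (IKKα) in at most 4. In at least 1 library all 10 had a promoter region, against 59.7% of all protein-coding genes. MAP3K7, which encodes TAK1, was at the top 4.04%, and MAP3K14, the NIK kinase of the non-canonical branch, at the top 11.8%. Of 12 genes of adaptors and other signalling proteins 8 had a promoter region called in all 6 libraries, and all 12 had one in at least 1. The 8 were led by BCL10, a partner of MALT1, at the top 0.180% and MYD88, the adaptor of Toll-like receptors, at the top 1.41%.

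Of 6 receptor genes 1 (16.7%) had a promoter region called in all 6 libraries, against 44.8% of all protein-coding genes. In at least 1 library 4 (66.7%) had one, against 59.7% of all protein-coding genes. CD40, the receptor whose signal LMP1 mimics, was called in all 6, at the top 56.0%. TNFRSF1B was called in at most 4 libraries, TNFRSF13B in at most 1 and the BAFF receptor gene TNFRSF13C in at most 2. LTBR, the lymphotoxin receptor, had no region at all in its window, and TNFRSF1A had 2 distal regions but no promoter region. Of 10 further target genes 5 had a promoter region called in all 6 libraries, namely EBI3, CD83, BCL2A1, CFLAR and IRF4. ICAM1 and IER3 were called in at most 5 libraries, and the chemokine genes CCL17 and CCL22 had no promoter region in any. In the same limma fit, 0 of the 68 regions tested in these lists passed an adjusted p of 0.05 in any comparison, with 4, 4 and 2 regions at an unadjusted p under 0.05. The lists include BIRC2, whose promoter regions also lay in the BIRC3 window and were counted there too.

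The label of the cells was checked on marker promoters. Each of 6 B cell markers had a promoter region in at least 1 library, against 59.7% of all protein-coding genes, and MS4A1 (CD20) and EBF1 had one in all 6, which is 33.3% against 44.8%. CD79B and PAX5 had one in at most 1 library and CD79A in at most 4. Of the markers of other cells, CD8A of 4 T cell genes (25%) was called in all 6 libraries and CD14 of 3 myeloid genes in at most 4. No promoter region was called for the other T cell and myeloid markers, 3 erythroid genes and 2 epithelial genes.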

How the data were processed

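The deposited lists were made by the authors, who mapped reads to hg19 with Bowtie2 2.1.0, removed duplicates with Picard 1.79 and called narrow peaks with MACS2, of unstated version. The paper describes merging the samples of a condition before peak calling, but there is 1 list for each library here. For each peak the authors deposited a score (10 times the −log10 q), the summit's fold enrichment as a ratio to local background, and its significance as −log10 p and −log10 q. The other deposited column used, the summit offset, gives a position and has no unit of level. DESeq, also named in the submitters' notes, left no values in these lists.

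From there, peaks of all libraries were merged where they overlapped or adjoined, and a library called a region that held at least 1 bp of its peaks. Promoters came from 78701 starts of protein-coding transcripts in GENCODE version 44 on GRCh37, which is the build of hg19. Summit reads were recovered from fold enrichment and −log10 p to within 0.001 for 100% of peaks. Ranks were by −log10 q, with ties by fold enrichment. Motifs and sequences were read from the GRCh37 reference. Summit enrichment was tested with limma 3.58.1 (R 4.3.3) across all regions called in 6 libraries, with protocol as the only term. Overlaps were checked against bedtools 2.31.1, and both steps were tested on simulated data with Python 3.11.15.

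All 10 genes are named, each with its strongest promoter and, where there was one, its strongest distal region, together with regions called by 1 protocol alone. The genes, the lists of pathway and marker genes, the motifs and the tests were chosen with earlier results of these data known. κB matches in whole regions and at gene starts, ranks by reads and a flank of 50 kb were added after the data were examined. The precision is limited by the reads at a summit, with a median of 20 to 22 per library, and by 2 libraries per protocol. The alternatives were a stricter q, equally long peak lists, other windows, scalings and rules for a call, libraries left out in turn, and a replicate block. Some marker and pathway genes and 1 promoter sequence are not reported here.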

Additional observations from a re-analysis of the deposited data

How the results depend on the processing

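All 10 genes kept a promoter region called in all 6 libraries when a library was left out and with promoters of 500 bp or 2 kb. With a stricter q or equally long peak lists these were 9, without NFKBIE, whose −log10 q was 4.46 in replicate 1 of the old buffer. Of the 40 regions, 15 instead of 22 were called in all 6 libraries when at least 50% of a region had to be covered. The share of all consensus regions under this rule is not given here, so the 15 are not compared with it. The differences at the RELB and NFKB2 promoters and the NFKB1 intron at 85.4 kb kept their sign in every fit run. These regions were picked by their values in the same libraries, so a kept sign adds no separate evidence for a difference. Counts of peaks in the windows changed with the choice of peaks and of window. With a −log10 q of at least 5 the mean per library was 30.5, 27.5 and 30.0 for the old buffer, the purified and the unpurified new buffer, and with an equal number of 30136 peaks per library it was 29.5, 27.5 and 30.0. Without a flank the means were 24.0, 21.0 and 23.0 in the same order. With a flank of 50 kb, chosen after seeing the data, they were 63.5, 57.5 and 63.5, with 84 regions in the windows and 42 of them called in all 6 libraries.

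The number of regions that limma called over the whole genome was small and moved with the fit. For the purified new buffer against the old it was 1, but 9 on summit reads and 0 without a variance trend, and it ranged from 0 to 8 when 1 library was left out. It was 0 without either old buffer library, and 8 without replicate 1 of the purified new buffer. For the unpurified new buffer against the old it was 1, but 4 on summit reads, 0 without centring, 0 with quantile normalization and 0 without a variance trend, and it ranged from 0 to 4 when 1 library was left out. It was 0 without either old buffer library or replicate 1 of the unpurified protocol, 4 without replicate 1 of the purified new buffer, and 2 without replicate 2 of the unpurified protocol. Where a library was left out, the lone library of a protocol was assumed to vary like the others. In none of these fits did limma call a region of the 10 genes, at an adjusted p of 0.05.

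Libraries with the same replicate number share only that number: the correlations of the differences between replicates 1 and 2 were 0.0130, -0.000802 and 0.0149 between pairs of protocols over 20064 regions. With a replicate block limma called 1, 1 and 0 regions in the 3 comparisons, as without it.

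Ranked by reads instead of −log10 q, which was added after seeing the data, the median promoter position of NFKB1 changed from the top 29.7% to 14.8%, of NFKBIA from 15.0% to 5.17%, of TRAF1 from 39.6% to 13.9% and of BIRC3 from 1.55% to 0.359%, more than 1 SD over libraries, and that of the other 6 genes by less. Read totals are not in the lists, so an absolute depth was not computed.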
